A study of Drosophila melanogaster with 6 samples.

Results

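The genes described here are 10 genes that build the rhabdomere and the apical membrane of the fly photoreceptor: *chp*, *ninaC*, *M7BP*, *Cpn*, *eys*, *prom*, *crb*, *sdt*, *Patj* and *Moe*. They were chosen by name for their known roles in the rhabdomere, the stalk membrane and the space between rhabdomeres, and all 10 were found among the 17558 genes of the count table. The study sequenced RNA of 10-day-old male flies in 3 post-isolation and 3 pre-isolation samples. They are biological replicates with the same numbers in both groups, and the paper refers to the respective pre-isolation samples. All flies carried *UAS-GFP-Msp300KASH* and *rh1-GAL4* in a *w*, *ry* background, so that the *Rh1* driver put GFP on the nuclear membrane of the outer photoreceptors R1 to R6. A post-isolation sample is nuclear RNA of GFP-tagged nuclei bound by antibody to magnetic beads, and its pre-isolation partner is total RNA from the homogenized heads. Each sample pooled many heads, and the study also detected the driver in antennae. The 2 groups differ both in the cells they hold and in the cell compartment, and these cannot be told apart here. In bulk RNA, fewer cells of a type and less RNA per cell cannot be told apart either.

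The photoreceptor is an epithelial cell whose apical surface faces sideways, into a space that it shares with its neighbors in the ommatidium. The central part of that surface folds into the rhabdomere, a stack of tightly packed microvilli that holds rhodopsin and the phototransduction machinery. A smooth stalk membrane, set up by the Crumbs complex, joins the rhabdomere to the adherens junctions, and in flies a secreted matrix keeps the rhabdomeres of an ommatidium apart. Loss of human homologs of several of these genes, among them *crb*, *eys* and *prom*, causes inherited retinal degeneration.

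Gene counts totaled 11693481 to 14522962 per post-isolation sample and 9999540 to 11232033 per pre-isolation sample. Levels are given as CPM, counts scaled to one fixed total per library after adjustment by TMM factors, and log2 fold changes are post- over pre-isolation. The terms post-enriched and post-reduced stand for an FDR (Benjamini-Hochberg adjusted p) below 0.05 in edgeR's glmTreat test against a fold change of 2, over the 10378 genes tested. Of 10 photoreceptor markers, 8 were post-enriched, against 7.29% of all tested genes, and their summed CPM was 91289 to 125498 after isolation and 36946.5 to 39376 before it. Among them *gl*, the transcription factor gene that specifies photoreceptors, had a log2 fold change of 2.96 (SE 0.14, glmTreat FDR = 7.4e-08). The called markers included the inner photoreceptor opsin genes *Rh3*, *Rh4*, *Rh5* and *Rh6*, at 2.53, 1.81, 2.05 and 2.05 on the log2 scale. Those not called were *ninaE*, the opsin gene of the outer photoreceptors, at 0.86, and *elav* at 0.64. The source of the inner photoreceptor RNA was not tested. Summed glial markers lay between 985 and 1353 CPM after isolation and between 2128 and 2277 CPM before it. Of these 7 genes 0 were called, where 4.89% of all tested genes were post-reduced. Brain neuron markers summed to 701 to 1174 CPM after and 1392 to 1480 CPM before isolation, with *Gad1* post-reduced. Hemocyte markers summed to 196 to 330 CPM after and 410 to 425 CPM before isolation, with *srp* post-reduced. Cone and pigment cell markers summed to between 1267 and 1549 CPM after isolation and between 914 and 1034 CPM before it. Of these, 1 was post-enriched, *w*, which the *UAS* transgene also carries as a marker, and 1 post-reduced, *v*. The sum includes *w*, at 903, 859 and 431 CPM in post-isolation replicates 1 to 3 and 59.5, 63.9 and 57.3 CPM in pre-isolation replicates 1 to 3. Over the 6 tested genes of this list the median log2 fold change was -0.25, with 2 above 0. Muscle markers, summed to 725 to 1118 CPM after isolation and 673 to 774 CPM before it, overlapped between the groups. Log2 fold changes of the tested muscle markers ran from -1.65 for *up*, which was post-reduced, to 1.02 for *sls*. The part of these cells in the values of the 10 genes was not tested. Fat body markers summed to between 2730 and 4347 CPM after isolation, against 8474 to 9877 CPM before it. *Fbp2* had no count in the post-isolation samples and was too low in the pre-isolation samples to be tested. Markers of the auditory organ of the antenna summed to 36.4 to 45.0 CPM after isolation and 18.8 to 28.3 CPM before it. None of them was called. *nan* was at 0 after isolation and likewise too low before it to be tested.

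All 10 genes were tested. Of these, 7 were post-enriched (*M7BP*, *prom*, *chp*, *eys*, *crb*, *sdt* and *ninaC*) and none was post-reduced, where 7.29% of all tested genes were post-enriched and 4.89% post-reduced. The other members, *Cpn*, *Patj* and *Moe*, had fold changes below 2. The median log2 fold change was 2.06 over the 10 genes and -0.07 over all genes tested. For each of the 10 genes, every post-isolation sample lay above every pre-isolation sample, as was true of 28.0% of all tested genes. Together the 10 genes took 4.55%, 3.86% and 3.09% of all gene counts in post-isolation replicates 1 to 3, against 0.987%, 0.927% and 0.945% in pre-isolation replicates 1 to 3 (exact permutation p = 0.1, two-sided, and no smaller value is possible with 3 samples in each group). With the replicate pairs as a block, the same 7 genes were post-enriched and none post-reduced, where 7.13% and 5.04% of all tested genes were called. Against no change, edgeR's quasi-likelihood F test found all 10 genes higher, where 24.4% of all tested genes were higher and 26.1% lower.

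**Figure D1:**
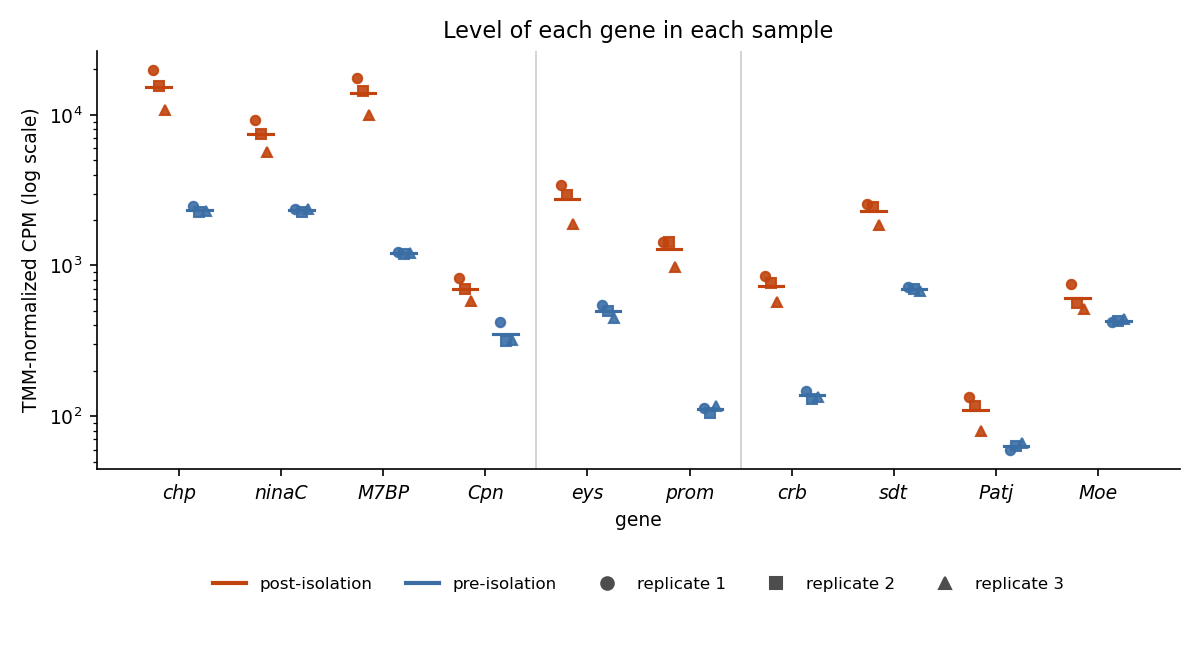
Level of the 10 genes in each of the 6 samples, as TMM-normalized CPM on a log axis, with rhabdomere genes at the left, the matrix gene *eys* and its partner *prom* in the middle and stalk and cortex genes at the right. Horizontal bars are group means, and no gene has a post-isolation sample at or below a pre-isolation sample.

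*chp* encodes chaoptin, a leucine-rich repeat adhesion protein of the photoreceptor surface that holds rhabdomere microvilli together. It was the gene with the highest post-isolation CPM of the 10, with 19897, 15464 and 10821 CPM in post-isolation replicates 1 to 3 and 2473, 2261 and 2286 CPM in pre-isolation replicates 1 to 3. The pre-isolation samples lay close together, and the lowest post-isolation sample was still far above them. The log2 fold change was 2.72 (SE 0.21, glmTreat FDR = 3.6e-06). *chp* (FBgn0267435) lies on the minus strand of 3R from 31204180 to 31210730.

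*ninaC* encodes a myosin III with a protein kinase domain, found in the rhabdomere and around its base, where it binds calmodulin. It had 9203, 7507 and 5702 CPM in post-isolation replicates 1 to 3, against 2361, 2262 and 2352 CPM in pre-isolation replicates 1 to 3. The groups were well apart, although post-isolation replicate 3 was the nearest to the pre-isolation samples, and the log2 fold change was 1.68 (SE 0.17, glmTreat FDR = 0.0016). With library size in place of TMM factors the log2 fold change was 1.22 and no longer passed the test (glmTreat FDR = 0.0675). *ninaC* (FBgn0002938) is on 2L from 7377702 to 7384344.

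*M7BP* is named for binding to Myosin 7a. It was post-enriched, with 17672, 14351 and 9952 CPM in post-isolation replicates 1 to 3 and 1231, 1195 and 1217 CPM in pre-isolation replicates 1 to 3. The post-isolation samples spread widely, with a coefficient of variation of 27.7%, against 1.53% before isolation, the smallest of the 10 genes, and the groups were far apart. Its log2 fold change of 3.53 (SE 0.21, glmTreat FDR = 1.6e-07) stood at rank 99 among the 10378 tested genes. *M7BP* (FBgn0263077) spans 28546 bp of 2R, from 7623242 to 7651787, and shares 634 bp of exon with genes on the other strand, whose reads the strand-specific counting keeps apart.

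*Cpn* encodes calphotin, a calcium-binding protein of the photoreceptor cytoplasm that lies close to the rhabdomere. It had 828, 697 and 577 CPM in post-isolation replicates 1 to 3, against 422, 315 and 322 CPM in pre-isolation replicates 1 to 3. The groups did not overlap, but the gap between the lowest post- and the highest pre-isolation sample was small, and pre-isolation replicate 1 stood above the other two. The log2 fold change of 0.99 (SE 0.15) did not pass the test against 2-fold (glmTreat FDR = 0.866), and with the replicate block it was again 0.99 (glmTreat FDR = 0.875). Against no change, edgeR's quasi-likelihood F test gave an FDR of 7.5e-05. *Cpn* (FBgn0261714) is on 3R from 12162887 to 12166186 and is the shortest of the 10 genes, with 2 exon blocks.

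*eys* encodes the secreted proteoglycan eyes shut, or spacemaker, which fills the space between rhabdomeres and without which that space does not open. Counts of *eys* came to 3418, 2922 and 1882 CPM in post-isolation replicates 1 to 3, against 547, 501 and 450.5 CPM in pre-isolation replicates 1 to 3. Replicate 3 was the lowest of both groups, the groups did not overlap, and *eys* was post-enriched with a log2 fold change of 2.46 (SE 0.19, glmTreat FDR = 5.7e-06). *eys* (FBgn0031414) spans 47265 bp of 2L, from 2311680 to 2358944.

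*prom* encodes prominin, a membrane protein of the microvillar surface that binds eyes shut and keeps the rhabdomeres apart together with it. It had 1429, 1433 and 972 CPM in post-isolation replicates 1 to 3, against 114, 106 and 117 CPM in pre-isolation replicates 1 to 3. Post-isolation replicates 1 and 2 were nearly equal and replicate 3 lower, all far above the pre-isolation samples, and the log2 fold change of 3.51 (SE 0.16, glmTreat FDR = 5.6e-08) was at rank 102 of all tested genes, next to that of *M7BP*, and which of the 2 was higher varied between settings (3.49 for both with the replicate block). *prom* (FBgn0259210) is on 2R from 24415410 to 24428387. In counts, *eys* exceeded *prom* by 1.08 ± 0.16 on the log2 scale in post-isolation samples and by 2.15 ± 0.18 in pre-isolation samples (SD, n = 3 each). The post- minus pre-isolation difference in this within-sample ratio was -1.07 and lay below 0 in all 3 numbered pairs (exact permutation p = 0.1, the smallest possible).

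*crb* encodes Crumbs, the transmembrane protein that sets the length of the stalk membrane. It had 854, 763 and 576 CPM in post-isolation replicates 1 to 3, against 147, 131 and 135 CPM in pre-isolation replicates 1 to 3, and the log2 fold change was 2.41 (SE 0.15, glmTreat FDR = 7.6e-07). *sdt* encodes Stardust, the scaffold that binds the cytoplasmic tail of Crumbs, and it reached 2577, 2455 and 1849.6 CPM in post-isolation replicates 1 to 3, against 718, 701 and 680.2 CPM in pre-isolation replicates 1 to 3. Both were post-enriched with well separated groups, and *sdt* had the smaller log2 fold change of the pair, 1.71 (SE 0.14, glmTreat FDR = 0.00026). *crb* (FBgn0259685) is on 3R from 24295078 to 24314541, and *sdt* (FBgn0261873) is on X from 8178549 to 8240474, the longest span of the 10 genes.

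*Patj* encodes the multi-PDZ scaffold that joins the complex through Stardust. It had 134, 116 and 79.8 CPM in post-isolation replicates 1 to 3, against 59.5, 63.8 and 66.1 CPM in pre-isolation replicates 1 to 3. Post-isolation replicate 3 lay not far above the pre-isolation samples, and the log2 fold change over the numbered pairs ran from 0.27 to 1.17. The fitted value of 0.80 (SE 0.17) did not pass the test against 2-fold (glmTreat FDR = 1.00), while the F test against no change gave an FDR of 0.0010. *Patj* (FBgn0067864) is on 3L from 1798803 to 1802184.

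*Moe* encodes moesin, which links actin filaments to the plasma membrane at the base of the rhabdomere and in many other cells. Levels of *Moe* were 752, 568 and 512 CPM in post-isolation replicates 1 to 3, against 424, 426 and 440.2 CPM in pre-isolation replicates 1 to 3. The groups were apart by a narrow margin, and the log2 fold change of 0.50 (SE 0.14) was the smallest of the 10 (glmTreat FDR = 1.00). Against no change the F test gave an FDR of 0.0071. With library size in place of TMM factors, *Moe* was at 0.05 and *Patj* at 0.34 on the log2 scale, and neither passed the F test against no change (FDR = 0.746 and 0.0766). *Moe* (FBgn0011661) is on X from 8873012 to 8898332.

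**Figure D2:**
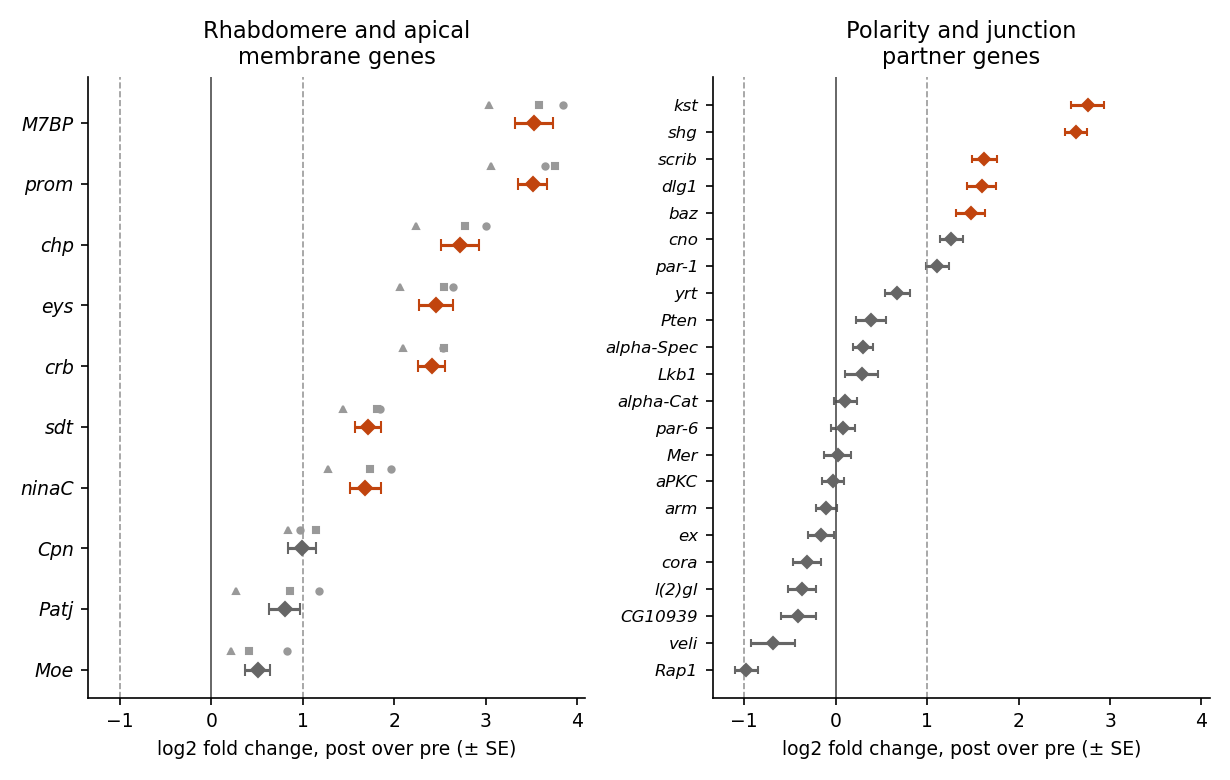
Log2 fold changes, post- over pre-isolation, with their SE, for the 10 genes (left, grey symbols are the 3 numbered pairs) and for 22 polarity and junction genes (right); orange genes passed the glmTreat test against 2-fold (dashed lines) and grey genes did not. The 10 genes run from 0.50 for *Moe* to 3.53 for *M7BP*, and the 22 partner genes from -0.98 for *Rap1* to 2.75 for *kst*.

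The ratio of 2 genes within a sample needs no scaling between samples, so its post- minus pre-isolation difference compares the changes of 2 members directly. The ratio itself is one of counts and also depends on the lengths of the 2 genes, as does the side of 0 on which it lies. Per kilobase of exon, *ninaC* lay above *M7BP* and *Moe* above *crb* in both groups. A set of 17 ratios was compared between post- and pre-isolation samples with two-sided exact permutation tests, where 0.1 is the smallest p and 0.113 the smallest adjusted p. In counts, *sdt* exceeded *crb* by 1.65 ± 0.05 on the log2 scale after isolation and by 2.35 ± 0.07 before it (SD, n = 3 each), and the difference of -0.69 varied by only 0.04 (SD) over the 3 pairs. *Patj* stood below *crb* by more after isolation, at -2.75 ± 0.09 on the log2 scale, than before it, at -1.12 ± 0.16 (SD, n = 3 each). *Moe* had fewer counts than *crb* in all 3 post-isolation samples, with a log2 ratio of -0.26 ± 0.14, and more in all 3 pre-isolation samples, with a log2 ratio of 1.65 ± 0.10. None of these ratios within the Crumbs complex and with *Moe* overlapped between the groups (exact permutation p = 0.1 and adjusted p = 0.113 for each, the smallest possible).

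Among the myosin-related genes, *M7BP* had more counts than *ninaC* in every post-isolation sample, with log2 ratios of 0.94, 0.93 and 0.80 in replicates 1 to 3, and fewer in every pre-isolation sample, with log2 ratios of -0.94, -0.92 and -0.95. The difference was 1.83 ± 0.07 (SD, n = 3 pairs; exact permutation p = 0.1). The log2 ratio of *prom* to *chp* differed by 0.82 ± 0.17 between post- and pre-isolation samples and that of *eys* to *chp* by -0.26 ± 0.10, with the same sign in all 3 pairs for each (SD, n = 3 pairs; exact permutation p = 0.1).

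*ninaE*, the gene of Rh1 and the source of the driver's promoter, served as a reference gene for within-sample ratios. Its own log2 fold change was 0.86 (SE 0.19), which did not pass the test (glmTreat FDR = 1.00), at 52354 ± 4230 CPM after and 28821 ± 1365 CPM before isolation (SD, n = 3 each). The other photoreceptor markers rose by more, among them *gl* at 2.96 and *trp* at 2.84 on the log2 scale, except *elav* at 0.64. A gene that rose as *gl* or *trp* did would thus also be higher relative to *ninaE*. Whether any gene changed relative to the content of outer photoreceptors was not tested. Relative to *ninaE*, *prom* was higher after isolation by 2.63 ± 0.36 and *M7BP* by 2.63 ± 0.37 on the log2 scale. The groups did not overlap for either gene (SD over 3 pairs, exact permutation p = 0.1). The same ratio was higher by 1.82 ± 0.35 for *chp*, 1.56 ± 0.28 for *eys*, 1.53 ± 0.24 for *crb*, 0.84 ± 0.20 for *sdt* and 0.80 ± 0.31 for *ninaC*, again with every post-isolation sample above every pre-isolation sample. The ratio of *Cpn* to *ninaE* differed by 0.13 ± 0.17, which was within the spread of the pairs, and the groups overlapped (exact permutation p = 0.4, adjusted p = 0.425). For *Patj* the ratio differed by -0.09 ± 0.41, also with overlapping groups (exact permutation p = 0.8), and without replicate 3 by 0.14. For *Moe* it differed by -0.37 ± 0.25 and lay below 0 in all 3 pairs (exact permutation p = 0.1).

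**Figure D3:**
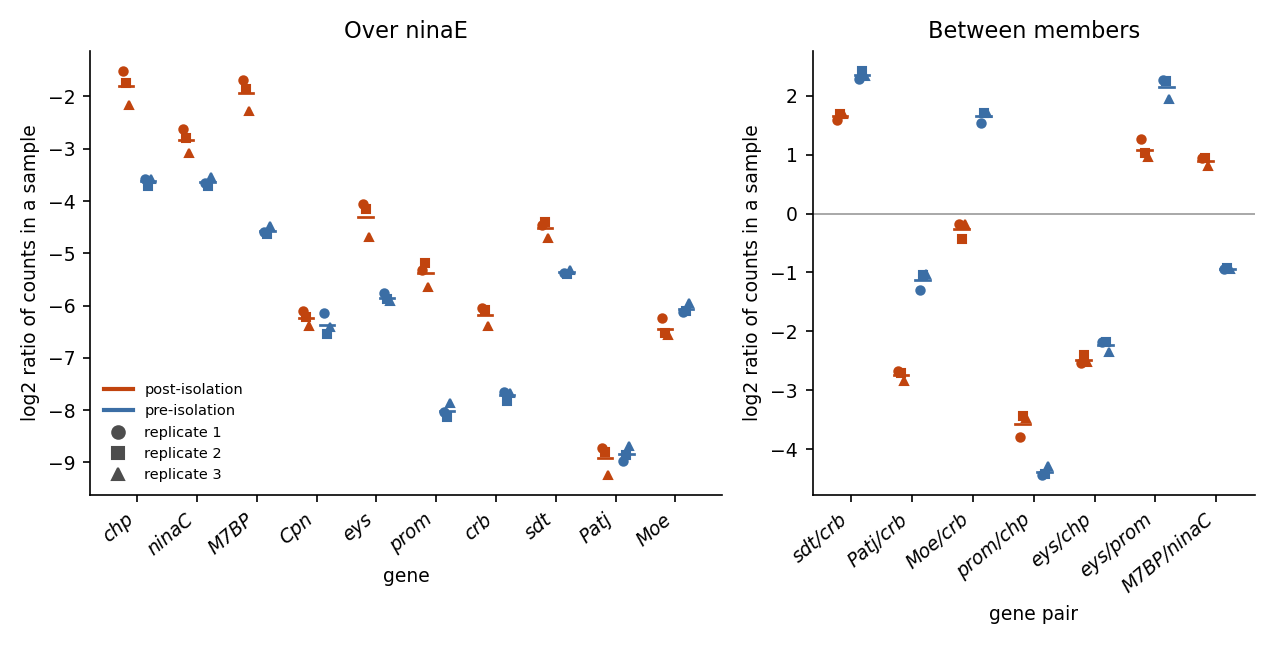
Log2 ratios of counts within each sample: each of the 10 genes over *ninaE* (left) and 7 ratios between the genes themselves (right), with group means as bars. *Cpn* and *Patj* overlap between groups on the left, and on the right *Moe*/*crb* and *M7BP*/*ninaC* lie on opposite sides of 0 in post- and pre-isolation samples. Counts were not divided by gene length, on which the side of 0 depends.

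Levels of different genes can be compared only per length, so CPM was divided by the kilobases of annotated exon of each gene. After isolation the order was *chp*, *ninaC*, *M7BP*, *eys*, *prom*, *Cpn*, *sdt*, *Moe*, *crb* and *Patj*, from 3159.7 ± 932 to 33.4 ± 8.40 CPM per kb (SD, n = 3). *chp* stood at rank 6 among all tested genes with an annotated length, *ninaC* at rank 15 and *M7BP* at rank 27, and 9 of the 10 genes were in the top 10%. The ranges of *ninaC* and *M7BP* overlapped, as did those of *eys* and *prom*, of *prom* and *Cpn*, and of *Cpn* and *sdt*. Before isolation the order was *chp*, *ninaC*, *Cpn*, *Moe*, *M7BP*, *sdt*, *eys*, *prom*, *Patj* and *crb*, from 480.3 ± 23.8 to 16.9 ± 1.04 CPM per kb, with an overlap of neighbors only for *sdt* and *eys*.

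*chp* and *ninaC* led in both groups, at 3159.7 ± 932 and 1377 ± 323 CPM per kb after isolation and 480.3 ± 23.8 and 429 ± 10.1 CPM per kb before it. Below them the order differed. *prom*, at rank 120 after isolation, was at rank 2164 before it, and *crb*, at rank 567 after isolation, was at rank 3271 before it. Within the Crumbs complex, *sdt* was the highest at 208 ± 35.3 CPM per kb after and 63.4 ± 1.72 CPM per kb before isolation. That place rests on exon length, since per kilobase of gene span the values were 37.6 for *crb*, 37.0 for *sdt* and 32.5 for *Patj* after isolation and 7.06, 11.3 and 18.7 for the same genes before it. *crb* was above *Patj* after isolation, at 89.7 ± 17.4 against 33.4 ± 8.40 CPM per kb, and below it before isolation, at 16.9 ± 1.04 against 19.2 ± 1.02 CPM per kb (SD, n = 3 each).

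**Figure D4:**
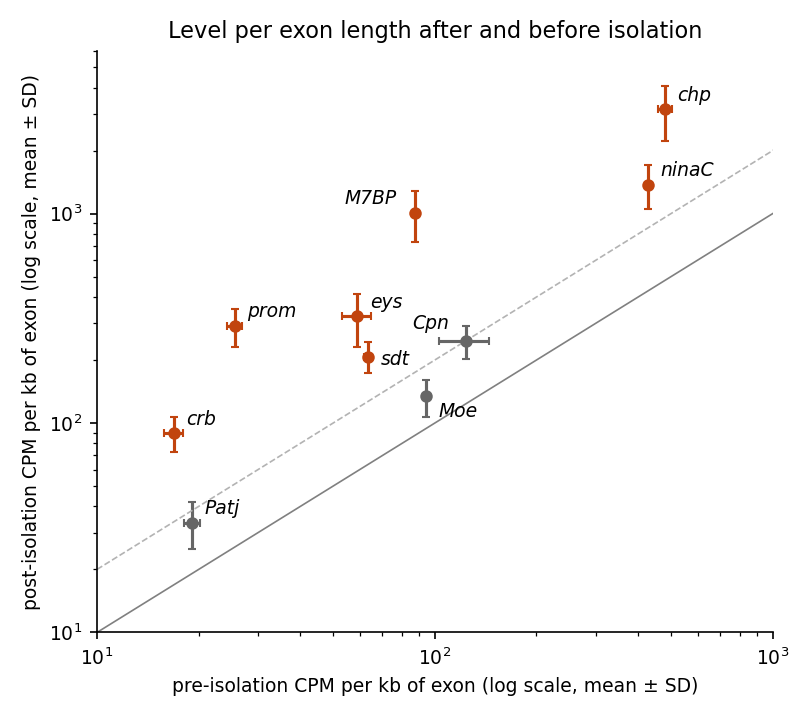
Mean level per kilobase of exon after isolation (vertical, log axis) against that before isolation (horizontal, log axis), with SD over 3 samples; the solid line marks equal levels, the dashed line a 2-fold gain, and orange genes passed the glmTreat test. *prom* and *M7BP* lie farthest above the lines, and *Cpn*, *Moe* and *Patj* lie between them or at the dashed line.

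The spread over replicates was wider after isolation, with coefficients of variation of 17.0% to 29.5%, than before it, with 1.53% to 17.0%. All 10 genes were lowest in replicate 3 of the post-isolation samples, and 9 of 10 were highest in replicate 1. Replicate 3 was below the mean of the other 2 for 93.1% of the 757 post-enriched genes and for 49.4% of all tested genes. In that sample the glial markers summed to 1353 CPM, against 985 and 1047 CPM in the other 2 post-isolation samples, and 5 brain neuron markers to 1174 CPM, against 701 and 722 CPM. The part of these cells in the lower values was not tested. With that sample left out, the same 7 of the 10 genes were post-enriched.

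The 10 genes are spread over 5 chromosome arms, with 3 on 3R, 2 each on 2L, 2R and X and 1 on 3L. Their spans run from 3300 to 61926 bp, all above the median of 2696 bp over the tested genes with annotation. On the other strand, *M7BP* shares 634 bp of exon with other genes, *Patj* 177 bp and *eys* 67 bp. None shares exon sequence with another gene on its own strand in the annotation used here. That annotation is more recent than the one used for counting, where overlaps were not checked. *Cpn* and *Patj* have the shortest spans, at 3300 and 3382 bp, with 2 and 3 exon blocks, and *Moe* spans 25321 bp with 15 exon blocks. Any link of gene structure to the calls was not tested.

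Other genes of apical polarity and cell junctions were counted as a list of 22, of which 5 were post-enriched (*kst*, *shg*, *scrib*, *dlg1* and *baz*) and 0 post-reduced, where 7.29% and 4.89% of all tested genes were called, with a median log2 fold change of 0.19. *kst*, the βHeavy-spectrin that is tethered to Crumbs at the stalk membrane, had 2887 ± 814 CPM after and 428 ± 16.9 CPM before isolation (SD, n = 3 each), a log2 fold change of 2.75 (SE 0.18, glmTreat FDR = 9.9e-07). *shg*, which encodes E-cadherin of the adherens junction, had a log2 fold change of 2.63 (SE 0.12, glmTreat FDR = 1e-07). The basolateral scaffold genes *scrib* and *dlg1* rose by 1.63 (SE 0.14) and 1.59 (SE 0.16) on the log2 scale, and *baz*, a junctional scaffold of the Par complex, by 1.47 (SE 0.15, glmTreat FDR = 0.0094). Without replicate 2 of the post- or of the pre-isolation samples, *baz* kept a log2 fold change of 1.37 or 1.41 but missed the threshold (glmTreat FDR = 0.0544 and 0.0595). The other Par complex genes did not pass, with log2 fold changes of 0.08 for *par-6* and -0.03 for *aPKC*, nor did the catenin genes *arm* at -0.10 and *alpha-Cat* at 0.10. The junction gene *cno*, at 1.27 (SE 0.12), missed the threshold narrowly (glmTreat FDR = 0.05005). *par-1*, at 1.11 (SE 0.12), did not pass either (glmTreat FDR = 0.322). *veli*, which encodes the remaining scaffold of the Crumbs complex, was at -0.68 (SE 0.24). With library size in place of TMM factors, only *kst* and *shg* of the 5 stayed post-enriched.

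A list of genes for delivery to the rhabdomere and for actin filaments held 22 measured members, 1 of them post-enriched and 0 post-reduced, a share near the 7.29% and 4.89% of all tested genes. The post-enriched gene was *didum*, encoding the myosin V that carries rhodopsin vesicles to the rhabdomere base, with a log2 fold change of 1.88 (SE 0.17, glmTreat FDR = 0.00024). Its cargo partners did not pass, with log2 fold changes of 0.87 for *Rip11* and -0.61 for *Rab11*. Nor did the actin genes, with log2 fold changes of -0.48 for *Act5C* and -1.12 for *Act42A*. Over these 22 genes the median log2 fold change was -0.05. Among 11 partners housed in the rhabdomere, 6 were post-enriched, against 7.29% of all tested genes, led by *trp* at 2.84 (SE 0.19, glmTreat FDR = 8.8e-07), the main light-activated channel, and *rdgC* at 2.65 (SE 0.17, glmTreat FDR = 7.7e-07), a rhodopsin phosphatase. The others were *inaC* at 2.06, *norpA* at 1.89, *inaD* at 1.79 and *Arr1* at 1.37, which encode the eye protein kinase C, the phospholipase C, the scaffold of the signaling complex and an arrestin. With the replicate block *Arr1* had nearly the same log2 fold change, 1.36, but missed the threshold (glmTreat FDR = 0.0812, against 0.0403 without the block), leaving 5, and 5 were called with any sample other than post-isolation replicate 3 left out. *rtp*, which encodes the retinophilin that binds NINAC, was at 1.19 (SE 0.15, glmTreat FDR = 0.197), and *ck*, the gene of Myosin 7a, at 0.75 (SE 0.14, glmTreat FDR = 1.00). *Arr2*, at 1.00 (SE 0.17, glmTreat FDR = 0.836), did not pass either. Of the 11 partners, 10 lay above 0. *Cam*, the calmodulin gene, lay below it at -0.61 (SE 0.13), and the F test against no change gave an FDR of 0.00097.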

How the data were processed

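The authors trimmed single-end reads with Trimmomatic, aligned them to BDGP6 (Bowtie 2 inside TopHat) and had HTSeq count alignments per gene and strand. The deposited table of counts holds 17558 genes and was not normalized. Alignments to more than 1 place made up 86.0% to 91.7% of all alignments per sample and were not counted, and of the unique ones 48.8% to 52.4% after and 44.8% to 45.5% before isolation fell in no annotated feature and were left out of library sizes. The authors also deposited CPM values for 5262 filtered genes, which were not tested, and the counts of those genes, used as an alternative. The members and gene lists were chosen with earlier results of these data known. The paper's methods name the test, the threshold and the filter.

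The 10378 genes above 1 CPM in 3 or more samples were scaled with TMM factors (0.802 to 0.938 after and 1.16 to 1.17 before isolation) and fitted with glmQLFit and glmTreat in edgeR 4.0.16 (R 4.3.3), with Benjamini-Hochberg adjustment. The SE is the size of the log2 fold change over the square root of its F statistic. Ratios used counts + 0.5. Named genes are the 10 members, *ninaE*, *trp* and *gl*, and of each list up to 5 called genes per direction; the other list genes were named after their values were seen. Positions and lengths come from a more recent Ensembl annotation of BDGP6, which held 98.3% of the genes. The labels give both groups the same replicate numbers, same-numbered samples were taken as pairs, and a blocked fit by replicate number was compared. Deviations from the group means correlated at 0.009, 0.048 and -0.013 in pairs 1 to 3. Other alternatives were DESeq2 1.42.0, RLE factors, library size alone, no filter, at least 10 counts in every sample, the F test with a 2-fold minimum, each sample left out and, added after seeing the data, the legacy fit. The fit was tested on simulated data with 200 genes changed well beyond 2-fold, which does not cover genes near that threshold. Promoter motifs and sequences were not used here. Of the genes listed, 3 could not be matched by ID.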

Additional observations from a re-analysis of the deposited data

How the results depend on the processing

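The 10 genes kept their direction in all 15 other settings, and 149 of 150 calls of single genes were the same. The exception was *ninaC*, at 1.22 with library size alone. That setting moved the median log2 fold change of all genes to -0.51, against -0.07 with TMM factors, and it gave 451 post-enriched and 1253 post-reduced genes, against 757 and 508. It left 2 polarity partner genes post-enriched and 1 post-reduced, and 4 delivery and actin genes post-reduced; *scrib*, *dlg1* and *baz* were no longer called. The authors' filtered table gave 480 post-enriched genes and 1 post-reduced delivery and actin gene, the F test with a 2-fold minimum gave 1375 and 1483 genes and 3 post-reduced delivery and actin genes, and DESeq2 gave 278 post-reduced genes. With each sample left out in turn, counts ran from 555 to 942 post-enriched and from 345 to 725 post-reduced genes, 7 of the 10 genes passed each time, 4 to 7 polarity partner and 5 to 8 rhabdomere partner genes were post-enriched, and 0 to 1 delivery and actin genes were post-reduced (1 without post-isolation or pre-isolation replicate 3); *baz* missed the threshold at 1.37 without post-isolation replicate 2 and at 1.41 without pre-isolation replicate 2. The replicate block gave 740 and 523 genes, changed no call of the 10 genes and left 5 rhabdomere partners, with *Arr1* at 1.36 against 1.37. Without replicate 3 the *Patj* to *ninaE* difference turned to 0.14; over the replicates left out it ran from -0.25 to 0.14. By gene span in place of exon length, 4 genes were in the top 10% of levels before isolation, against 7, and *sdt* was no longer the highest of the Crumbs complex. With RLE factors, and with at least 10 counts in every sample, 6 polarity partner genes were post-enriched, against 5. The cause of these shifts was not tested.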
